A study of Homo sapiens with 4 samples.

Results

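The 10 genes described here are the ID genes ID1, ID2, ID3 and ID4, the inhibitory SMAD genes SMAD6 and SMAD7, the BMP-activated SMAD gene SMAD9, the receptor genes BMPR1A and BMPR2, and the T-box gene TBX20. All 10 have a row of their own among the 23576 rows of the authors' deposited table. They were chosen by their group values in this same table, because ID1, ID2 and ID3 were much lower in differentiated cells. Their levels and fold changes are therefore given as a description, with no test.

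RNA was sequenced from SH-SY5Y cells, a subclone of the human neuroblastoma line SK-N-SH, in 2 undifferentiated and 2 differentiated libraries. Undifferentiated cells stood at day 0 and were kept in medium with 10% fetal bovine serum. Differentiated cells were taken on day 16, after 7 days in 5% serum with retinoic acid at 10 µM and then 9 days with the neurotrophin BDNF, added at 20 ng/mL to medium lacking serum. Retinoic acid, BDNF, loss of serum and time in culture changed together, so they cannot be told apart here. The table holds 1 FPKM (a fragment count scaled to transcript length and library size) for each gene and group, so no spread between libraries can be given and read depth is unknown. Whether the 2 libraries of a group came from separate cultures is not stated, so the q-values may reflect no more than technical variation. As these are bulk libraries, fewer cells that express a gene and less of its RNA per cell cannot be told apart.

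Bone morphogenetic proteins (BMPs) bind paired type I and type II receptor kinases, which phosphorylate SMAD1, SMAD5 and SMAD9. These join SMAD4 and switch on early target genes, among them the ID genes and the pathway's own inhibitors SMAD6, SMAD7 and BAMBI. ID proteins have a helix-loop-helix for pairing but no basic region for binding DNA, so they hold E proteins and the tissue-specific factors that pair with E proteins away from DNA. In the embryo, BMP signals from the dorsal aorta start the sympathoadrenal programme, the lineage from which neuroblastoma arises.

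The fold changes of the whole table were not centred on 0. Over 11169 tested genes that averaged 1 FPKM or more and had a usable statistic, the median log2 fold change was -0.62, with quartiles of -0.96 and -0.23. Each fold change is therefore also read against this median gene. Of the 11200 tested genes that averaged 1 FPKM or more, the authors called 31.4% lower and 2.2% higher at q below 0.05. Of the 11169, 4.56% lay below and 5.64% above the median gene, by a normal test that uses the implied error, with a Benjamini-Hochberg adjusted p below 0.05. The defining markers of the labelled cell type were present. All 10 sympathoadrenal neuroblast markers were tested by the authors, 6 were called lower and 0 higher beside those shares, and their summed level went from 1390 to 876 FPKM. The 5 endothelial markers summed to 0.0472 and 0.216 FPKM, with 4 listed at 0 in undifferentiated and 0 in differentiated cells. In differentiated cells each lay below 0.0726 FPKM, the mean of the olfactory receptor rows that are taken below as background. That mean was 0.00506 FPKM in undifferentiated cells. The 6 fibroblast markers summed to 29.4 and 27.3 FPKM, with COL1A2 listed at 0 in differentiated cells. The 6 Schwann cell and glial markers summed to 4.63 and 3.38 FPKM, most of it from S100B at 4.33 and 2.98 FPKM. SOX10, GFAP and FABP7 were listed at 0 in undifferentiated cells. The 4 immune markers summed to 0.747 and 1.74 FPKM, with 3 of them listed at 0 in undifferentiated cells and 1 in differentiated cells. All 6 proliferation markers were called lower by the authors (q below 0.05), and their sum went from 533 to 191 FPKM. The part of dividing cells in the values below was not tested.

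ID1, ID2 and ID3 were lower in differentiated cells, and ID4 was higher. ID1 lies on chromosome 20 from 30193086 to 30194317 (hg19). Its level was 38.6 FPKM before and 2.82 FPKM after differentiation, the authors' value for each group. This is a log2 fold change of -3.78 per the authors' deposited table, whose test statistic implies a standard error of 0.75. It was therefore 13.7-fold lower in differentiated cells.

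ID2, on chromosome 2 from 8822113 to 8824583 (hg19), had group values of 29.1 and 1.49 FPKM. The authors' deposited table lists -4.29 for its log2 fold, and its implied standard error was 0.58. With 5.11% of its undifferentiated level left, ID2 had the lowest remaining share of the 4 ID genes. ID3, on chromosome 1 from 23884421 to 23886285 (hg19), had group values of 10.2 and 1.19 FPKM. Its log2 fold was -3.09 per the authors' deposited table, with 0.69 as the implied standard error, and 11.8% of the undifferentiated level was left.

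ID4, on chromosome 6 from 19837601 to 19842431 (hg19), went the other way, with group values of 2.77 and 5.92 FPKM. The authors' deposited table puts its log2 fold at 1.10, and the implied standard error was 0.36. It was 2.14-fold higher in differentiated cells. Read against the median gene, the difference was 1.72 on the log2 scale. ID4 was the least abundant ID gene in undifferentiated cells and the most abundant in differentiated cells.

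**Figure D1:**
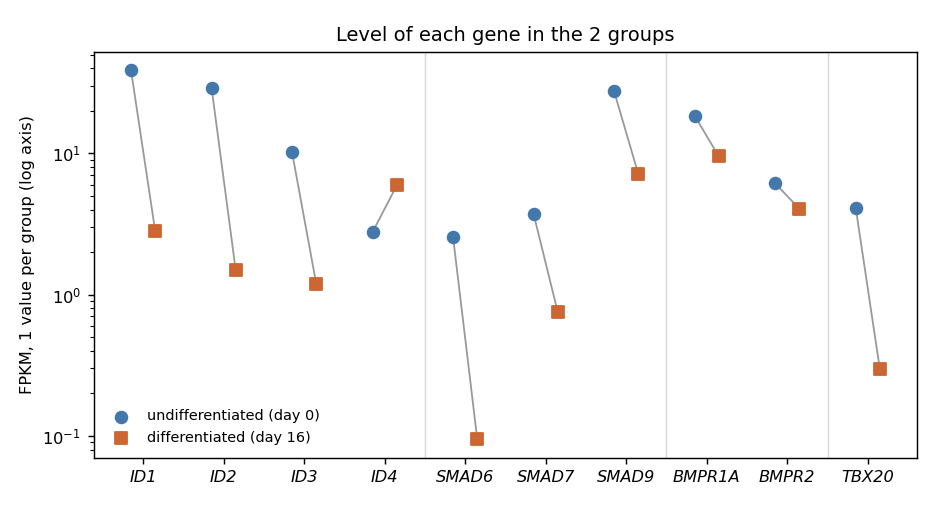
Level of the 10 genes in FPKM on a log axis, as the authors' 1 value per group, with circles for undifferentiated and squares for differentiated cells and a line joining the values of a gene. ID4 alone of the 10 was higher in differentiated cells (2.77 and 5.92 FPKM), and SMAD6 had the lowest value of all, at 0.0948 FPKM.

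The make-up of the ID family changed with these values. The summed level of the 4 genes went from 80.6 to 11.4 FPKM, so 14.2% was left. ID1 made up 47.8% of the sum before differentiation and 24.7% after it. ID2 went from 36.1% to 13.0% of the sum, and ID3 from 12.6% to 10.5%. The share of ID4 was 3.44% in undifferentiated and 51.8% in differentiated cells. Per length, ID1 was 13.9 times as abundant as ID4 in undifferentiated cells, and ID4 was 2.10 times as abundant as ID1 in differentiated cells.

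Differences between the fold changes of ID1, ID2 and ID3 had wide combined errors, so these genes cannot be ordered. The log2 fold change of ID1 less that of ID2 was 0.51, with a combined implied standard error of 0.95. The same difference was -0.69 for ID1 less ID3 (combined error 1.02) and -1.20 for ID2 less ID3 (combined error 0.90). Against ID4 the differences were larger, at -4.87 for ID1, -5.39 for ID2 and -4.18 for ID3, with combined errors of 0.83, 0.68 and 0.78. These errors take the genes as independent and are a description of how the values lie. As ID1, ID2 and ID3 were chosen for their fall, their distance from ID4 follows in part from that choice.

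The promoters of the 4 ID genes and of SMAD6 are shown because SMAD complexes bind short boxes in DNA, and because ID4 differs in direction from its relatives. They come from RefSeq on GRCh38.p14, a different build from the hg19 loci above, and run from 250 bases before the transcription start to 50 after it. Capitals mark GTCT, the SMAD box, on either strand (AGAC on the reverse). The ID1 window is chr20:31605039-31605338 (plus strand), that of ID2 chr2:8681806-8682105 (plus), and that of ID3 chr1:23559452-23559751 (minus). ID4 has chr6:19837120-19837419 (plus) and SMAD6 chr15:66701986-66702285 (plus).
ID1: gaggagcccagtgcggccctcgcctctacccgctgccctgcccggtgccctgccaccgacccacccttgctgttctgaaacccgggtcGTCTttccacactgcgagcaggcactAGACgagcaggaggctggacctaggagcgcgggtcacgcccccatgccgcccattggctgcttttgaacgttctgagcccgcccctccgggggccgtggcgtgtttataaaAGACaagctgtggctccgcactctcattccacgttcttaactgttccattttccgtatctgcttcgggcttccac
ID2: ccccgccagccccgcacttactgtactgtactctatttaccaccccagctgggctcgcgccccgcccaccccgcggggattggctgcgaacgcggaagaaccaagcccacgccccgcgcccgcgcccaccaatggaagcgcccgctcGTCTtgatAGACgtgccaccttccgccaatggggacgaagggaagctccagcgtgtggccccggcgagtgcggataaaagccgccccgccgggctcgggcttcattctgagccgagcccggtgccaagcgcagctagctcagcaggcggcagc
ID3: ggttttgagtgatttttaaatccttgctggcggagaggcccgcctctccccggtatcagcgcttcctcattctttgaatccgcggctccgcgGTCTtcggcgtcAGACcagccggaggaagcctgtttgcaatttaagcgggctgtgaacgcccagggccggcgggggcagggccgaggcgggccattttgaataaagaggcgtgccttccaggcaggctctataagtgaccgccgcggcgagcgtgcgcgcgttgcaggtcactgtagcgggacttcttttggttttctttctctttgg
ID4: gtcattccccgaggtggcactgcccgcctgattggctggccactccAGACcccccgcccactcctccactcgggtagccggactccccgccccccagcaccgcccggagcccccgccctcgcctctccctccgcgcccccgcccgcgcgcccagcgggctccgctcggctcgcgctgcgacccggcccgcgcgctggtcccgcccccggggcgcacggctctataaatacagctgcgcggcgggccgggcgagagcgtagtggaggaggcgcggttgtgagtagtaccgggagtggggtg
SMAD6: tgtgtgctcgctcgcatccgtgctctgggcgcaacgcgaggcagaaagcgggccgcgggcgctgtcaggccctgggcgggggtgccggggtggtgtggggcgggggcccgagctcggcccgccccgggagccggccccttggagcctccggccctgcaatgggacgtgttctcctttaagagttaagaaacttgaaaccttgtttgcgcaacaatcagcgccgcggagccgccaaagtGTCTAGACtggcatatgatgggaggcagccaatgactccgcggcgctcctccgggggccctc

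All 10 genes matched the RefSeq promoter table by symbol, with 3 start sites for SMAD7 and 1 for each other gene. GTCT was matched 3 times for ID1, 2 times for ID2 and for ID3 and 1 time for ID4, and the median over all 35116 promoters was 2. At least 1 match was found in 84.0% of all promoters, so its presence says little about these windows. The GC-rich core GGCGCC, which SMAD1 and SMAD5 can bind, was in none of the 4 ID windows or that of SMAD6. Sequence farther than 250 bases before the transcription start was not searched, so sites there would be missed. GGCGCC was in the windows of BMPR2 and TBX20, in 19.2% of all promoters and in 35.9% of the 16447 with at least 60% G and C. The windows of BMPR2 and TBX20 hold 76.7% and 73.3% G and C.

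The SMAD6 window holds the palindrome GTCTAGAC, which is GTCT on both strands side by side, starting at position -12 from the transcription start. This 8-base form was in 71 of 35116 promoters, or 0.202%, and in 0.116% of those with at least 60% G and C, and was searched after the SMAD6 sequence had been seen. No other window of the 10 genes holds it. ID1 has TATAAA at positions -33 and -31, overlapping matches on opposite strands, and ID4 has it at position -29. That TATA box was in 11.5% of all promoters, in 2.80% of those with at least 60% G and C, and in neither the ID2 nor the ID3 window. CCAAT, on either strand, was matched 3 times for ID2, 1 time each for ID1 and ID4, and in 34.6% of all promoters. E-boxes (CANNTG), the sites of E proteins, were matched 1 time each for ID2 and ID4 and in neither ID1 nor ID3, against 68.7% of all promoters. The G and C content was 62.7% for ID1, 69.0% for ID2, 59.7% for ID3 and 76.3% for ID4, beside a median of 58.7% over all promoters. These are letters in a window and not sites of binding.

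The inhibitory SMADs, which block BMP receptors and their SMADs, were both lower in differentiated cells. SMAD6, on chromosome 15 from 66994674 to 67074337 (hg19), had group values of 2.54 and 0.0948 FPKM. Its log2 fold, -4.74 per the authors' deposited table, has an implied standard error of 1.76, the largest of the 10 genes. The differentiated value stands near background. Of 376 olfactory receptor rows, genes known for use in the olfactory epithelium, 106 had at least this level in differentiated cells. The mean of those rows went from 0.00506 to 0.0726 FPKM, so background also differed between the groups. On the log2(FPKM + 0.5) scale the SMAD6 difference was -2.35, smaller in size than those of ID1, ID2, ID3 and TBX20, so its place among the 10 depends on how low values are treated.

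SMAD7, which acts on both the BMP and the TGF-beta branch, lies on chromosome 18 from 46446223 to 46477081 (hg19). Its group values were 3.71 and 0.752 FPKM. For SMAD7 the log2 fold was -2.30 per the authors' deposited table, and its implied standard error was 0.76. With 3 FPKM added to both values the log2 difference was -0.84. Together the inhibitory SMADs went from 6.25 to 0.847 FPKM, which leaves 13.6% of the sum.

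SMAD9 was the most abundant of the SMADs that BMP receptors activate in undifferentiated cells. It lies on chromosome 13 from 37418968 to 37494409 (hg19), and its group values were 27.4 and 7.14 FPKM. Its log2 fold was -1.94 per the authors' deposited table, and of the 10 genes only the receptors had a smaller implied standard error than its 0.30. The authors' deposited table calls SMAD5 lower, at 15.5 and 8.88 FPKM (q = 0.0169), but its locus overlaps that of SMAD5-AS1 and its values are uncertain. The authors' deposited table does not call SMAD1, at 3.59 and 4.80 FPKM (q = 0.489). SMAD9 thus made up 59.0% of the summed SMAD1, SMAD5 and SMAD9 level before differentiation and 34.3% after it. SMAD5 made up 33.3% and 42.7%, and SMAD1 7.73% and 23.1%. The sum went from 46.5 to 20.8 FPKM. Inhibitory SMADs stood at 0.135 of that sum in undifferentiated cells and 0.0407 in differentiated cells.

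**Figure D2:**
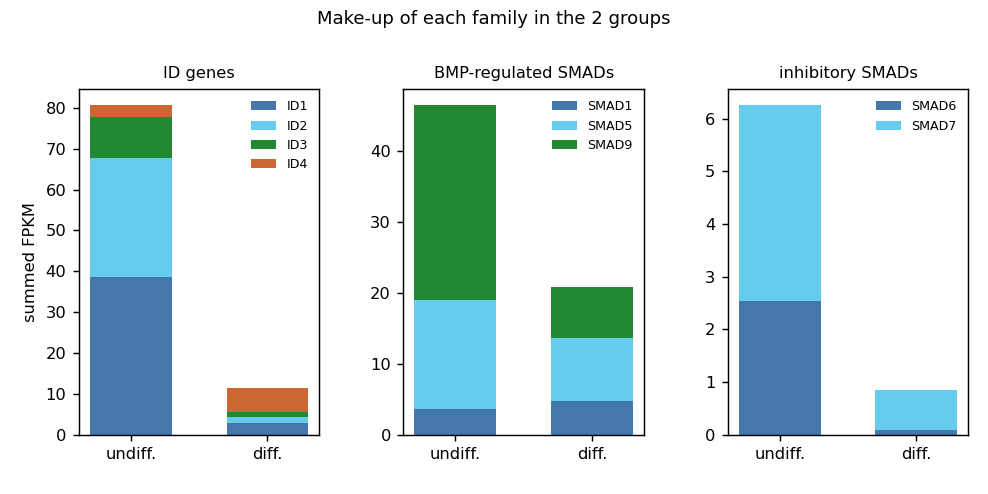
Summed FPKM of the ID genes, of SMAD1, SMAD5 and SMAD9, and of SMAD6 and SMAD7 in undifferentiated (undiff.) and differentiated (diff.) cells, with colours for the genes and axes that start at 0 and differ between panels. The ID sum goes from 80.6 to 11.4 FPKM and ID4 becomes its largest share, while the sums of the activated and inhibitory SMADs go from 46.5 to 20.8 and from 6.25 to 0.847 FPKM.

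The receptor genes differed least. BMPR1A, a type I receptor, lies on chromosome 10 from 88516396 to 88684945 (hg19) and had group values of 18.4 and 9.50 FPKM. Its log2 fold was -0.96 per the authors' deposited table, and the implied standard error was 0.29. Against the median gene this was -0.33. BMPR2, the type II receptor, lies on chromosome 2 from 203241050 to 203432474 (hg19) and had group values of 6.12 and 4.05 FPKM. For BMPR2 the authors' deposited table has a log2 fold of -0.60, and the implied standard error was 0.27. This lay 0.026 above the median gene. The direction of BMPR2 turned when the values were scaled otherwise, as given in the closing section.

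The shares of these receptors among their relatives were close in both groups. BMPR1A was 64.9% of the summed type I receptors BMPR1A, BMPR1B, ACVR1 and ACVRL1 in undifferentiated and 60.7% in differentiated cells. BMPR2 was 30.9% and 30.6% of the summed type II receptors BMPR2, ACVR2A and ACVR2B. The sums went from 28.4 to 15.7 FPKM for type I and from 19.8 to 13.2 FPKM for type II.

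TBX20, a T-box transcription factor known for its role in heart development, lies on chromosome 7 from 35242042 to 35293711 (hg19). Its group values were 4.12 and 0.298 FPKM. The authors' deposited table gives TBX20 a log2 fold of -3.79, close to that of ID1, and the implied standard error was 0.83. In differentiated cells 14 of the 376 olfactory receptor rows reached at least its level. With 0.5 FPKM added to both values the log2 difference was -2.54.

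**Figure D3:**
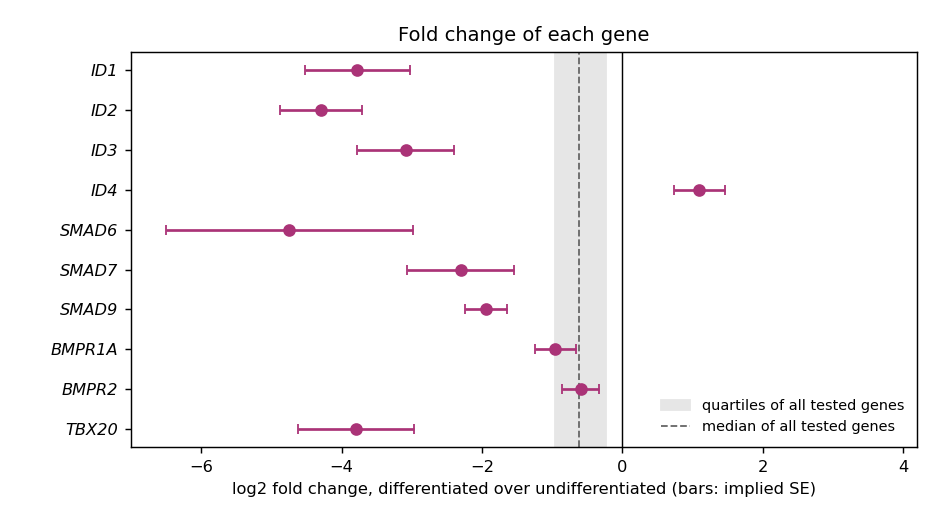
Log2 fold change of the 10 genes, differentiated over undifferentiated, with bars of 1 implied standard error on each side. The dashed line is the median of 11169 tested genes (-0.62) and the grey band runs between their quartiles (-0.96 and -0.23). BMPR2 lies on the dashed line and BMPR1A at the edge of the band, ID4 lies to the right of 0, and the other genes lie to the left of the band.

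Among the 11169 genes, ranked from the lowest fold change with nothing added to the values, SMAD6 had rank 7, ID2 rank 12, TBX20 rank 16, ID1 rank 18 and ID3 rank 39. SMAD7 had rank 96, SMAD9 rank 210, BMPR1A rank 2814 and BMPR2 rank 5811. ID4 had rank 278 from the highest. SMAD6, SMAD7 and TBX20 averaged 1 FPKM or more only through the undifferentiated group, where they were high, so their ranks rest on that filter. The median log2 fold change of the 10 was -2.70, beside -0.62 over all, a gap that follows in part from how the 10 were chosen.

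Levels also changed place. ID1 stood above 86.2% of the 11200 genes in undifferentiated and above 28.5% in differentiated cells. ID2 went from 81.9% to 11.3%, and ID3 from 56.1% to 6.54%. ID4 went from 19.5% to 52.4%. BMPR2 stood above 40.4% and 40.0%. Of the 10, BMPR1A had the highest level in differentiated cells (9.50 FPKM), followed by SMAD9, ID4 and BMPR2. Since spread between libraries is not given, neighbours in this order cannot be separated.

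**Figure D4:**
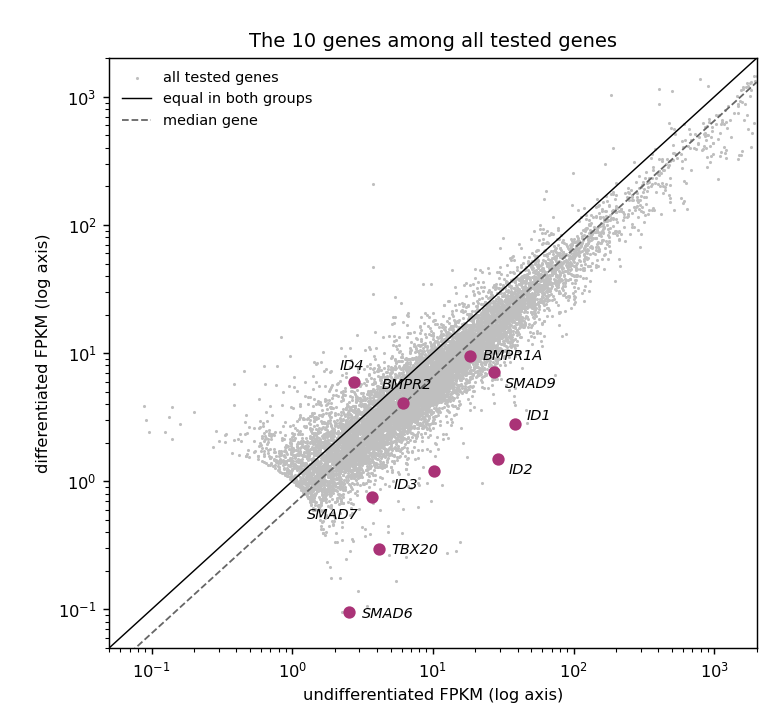
FPKM of the tested genes that lie within the axis limits, in undifferentiated (horizontal) and differentiated cells (vertical) on log axes, in grey, with the 10 genes in purple, a solid line for equal levels and a dashed line for the median gene. ID4 lies above the solid line, BMPR2 on the dashed line, and ID1, ID2, ID3, SMAD6 and TBX20 along the lower edge of the grey points.

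The genes differ in structure in ways the choice did not use. The loci of the ID genes span 1232 bases for ID1, 2471 for ID2, 1865 for ID3 and 4831 for ID4. The other loci span between 30859 bases for SMAD7 and 191425 for BMPR2. None of the 10 loci overlaps that of another row, so none of these values shares a locus with a listed neighbour or antisense gene.

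Genes with the most similar pair of levels were sought by distance on the log2 scale over the 2 groups. Nearest to ID1 were the adhesion gene LRRN3 (46.7 and 2.85 FPKM), the noradrenaline transporter gene SLC6A2 (46.0 and 3.60 FPKM) and the syndecan gene SDC2 (38.6 and 3.96 FPKM), with levels from the authors' deposited table. Nearest to ID2 were the histone gene HIST1H4F, the integrin gene ITGA9 and ADAMTS19, at distances of 0.73, 0.74 and 0.93. Nearest to ID3 were TNFAIP6, BAMBI and the receptor gene EGFR, at 0.29, 0.35 and 0.40. With 2 groups this likeness rests on 2 values for each gene.

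BAMBI, a membrane protein that resembles a type I receptor without a kinase and damps BMP and TGF-beta signals, is a feedback gene outside the 10. The authors' deposited table has it falling from 9.09 to 0.963 FPKM (log2 -3.24, q = 6.20e-06). It lay below the median gene (adjusted p = 0.000867, normal test with Benjamini-Hochberg adjustment). BAMBI averaged 1 FPKM or more only through the undifferentiated group, where it was high. Of the 22 extracellular and membrane inhibitors and modulators, 6 were tested at a mean of 1 FPKM or more. The authors called 1 of these lower, BAMBI, and 0 higher, beside 31.4% and 2.2% of all tested genes. NOG, which encodes the BMP antagonist noggin, was listed at 0 in both groups.

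Of 15 BMP and GDF ligand genes, 5 were tested by the authors. BMP7 and GDF10 averaged 1 FPKM or more and were called higher, and the other 3 were not called. GDF10 reached that mean only through the differentiated group, where it was high, so no count is read from this list. BMP7 rose from 3.89 to 14.6 FPKM (log2 1.91, q = 4.39e-09) and GDF10 from 0.689 to 2.28 FPKM (q = 0.0388), per the authors' deposited table. BMP7 was 58.5% of the summed ligand level in undifferentiated and 77.2% in differentiated cells, and the sum went from 6.65 to 18.9 FPKM. The authors' deposited table lists BMP4 at 0 and 0.484 FPKM (q = 0.0936) and BMP2, not tested, at 0.263 and 0.142 FPKM. Of 16 rows for other ligands of the TGF-beta family, 5 were tested at this level. TGFB3 rose from 0.977 to 3.78 FPKM (q = 0.00079) and GDF15, a stress-induced ligand, from 0.202 to 3.44 FPKM (q = 0.0118), per the authors' deposited table. Both reached a mean of 1 FPKM only through the differentiated group.

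Of 9 other receptors and co-receptors tested at this level, the authors' deposited table calls 3 lower and 0 higher. Over all tested genes these shares were 31.4% and 2.2%. The 3 called lower were ACVR1B (log2 -0.94, q = 0.0451), BMPR1B (-0.87, q = 0.0321) and ACVR2B (-0.78, q = 0.0109). None of these 3 lay apart from the median gene (adjusted p from 0.74 to 0.829, by the same normal test). The co-receptor gene RGMB lay above it, at 4.82 and 7.47 FPKM (adjusted p = 0.00121), and was not called by its q of 0.102 in the authors' deposited table. The authors' deposited table has ACVR1 at 2.73 and 1.39 FPKM (q = 0.168) and ACVR2A at 3.81 and 3.45 FPKM (q = 0.888). The locus of ACVR2A overlaps those of MBD5 and ORC4, and that of ACVR2B overlaps ACVR2B-AS1, so their values are uncertain.

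Of the 5 other SMAD genes, the authors' deposited table calls SMAD4 (17.5 to 9.43 FPKM, q = 0.00279) and SMAD5 lower and 0 higher. Neither differed from the median gene past the threshold (adjusted p = 0.635 and 0.824). Of 28 tested SMAD regulators and cofactors, 10 were called lower and 0 higher, a share near the 31.4% of all tested genes called lower, with 0 below and 0 above the median gene. The SMAD phosphatase genes CTDSP1 (-1.51, q = 0.0396) and CTDSP2 (-1.34, q = 0.00109), the co-repressor gene TGIF2 (-1.44, q = 7.49e-05) and the zinc finger gene ZNF423 (-1.44, q = 0.000108) were the largest of these log2 changes in the authors' deposited table. The locus of TGIF2 overlaps that of C20orf24, and its values are uncertain.

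Of 12 tested genes from a list of others known to respond to BMP, the authors' deposited table calls 6 lower and 0 higher. Over all tested genes 31.4% were called lower and 2.2% higher, and 4.56% lay below and 5.64% above the median gene. Of these 12, the 4 GATA and T-box genes named next lay below the median gene and the Notch and BMP target HEY1 above it. The zinc finger genes of the sympathoadrenal programme GATA2 (38.5 to 5.34 FPKM, q listed at 0) and GATA3 (19.0 to 5.43 FPKM, q = 2.13e-05) fell, per the authors' deposited table. The T-box repressor genes TBX2 (19.4 to 5.05 FPKM, q = 3.32e-07) and TBX3 (15.8 to 2.58 FPKM, q = 3.81e-09) also fell, per the authors' deposited table. HAND1 and HAND2, which also stand in the list of E protein partners, are the others called lower. The authors' deposited table has HAND2 at 205 and 136 FPKM (q = 0.0242), but its difference from the median gene was 0.04, and it took a positive sign under each of 3 other scalings. The authors' deposited table lists the homeobox gene MSX2 at 0.802 and 0.176 FPKM (q = 0.0838) and MSX1, not tested, at 0.0199 and 0.0943 FPKM. Of 3 tested TGF-beta responsive genes, the authors' deposited table calls the fibronectin gene FN1 lower (6.68 to 1.51 FPKM, q = 0.000393), and it lay below the median gene (adjusted p = 0.035).

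Beside TBX20, all 3 T-box genes tested at a mean of 1 FPKM or more are called lower by the authors' deposited table. Over all tested genes this share was 31.4%. The 3 were TBX2, TBX3 and MGA, which joins a T-box to a MAX-binding domain (26.7 to 12.1 FPKM, q = 1.69e-05). TBX2 and TBX3 lay below the median gene (adjusted p = 0.00211 and 2.61e-05), and MGA missed the threshold (adjusted p = 0.154). TBX18, with a mean under 1 FPKM, was at 0.705 and 0.0825 FPKM (q = 0.00772), per the authors' deposited table. A further 12 of the 16 T-box genes were under 0.5 FPKM in both groups.

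**Figure D5:**
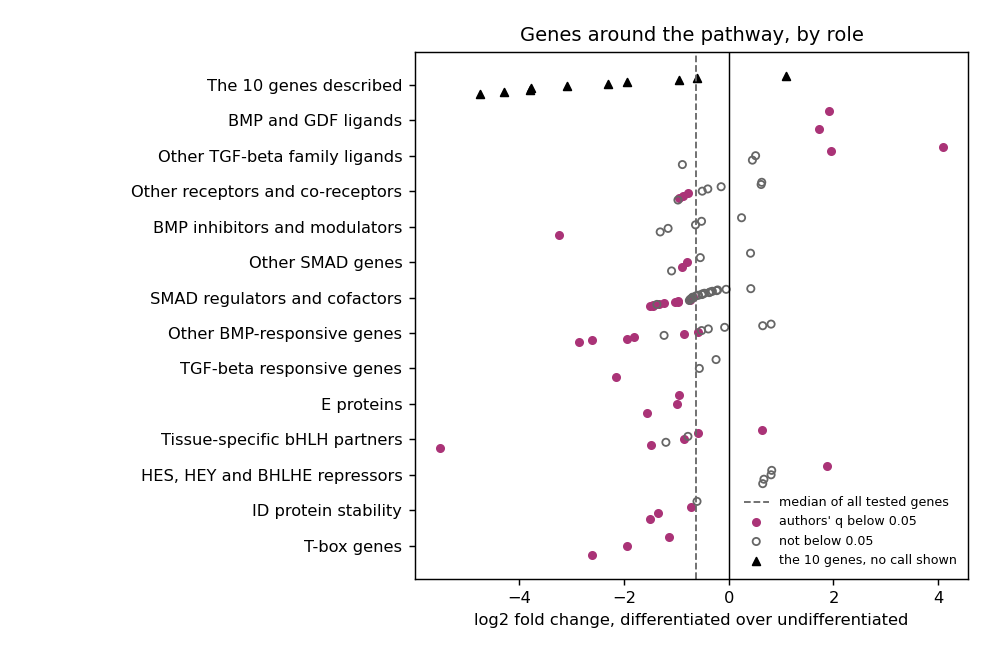
Log2 fold change of each tested gene that averaged 1 FPKM or more, by role, with filled points for the authors' q below 0.05 and open points for others, triangles for the 10 genes described with no call shown, a solid line at 0 and a dashed line at the median gene (-0.62). Both BMP and GDF ligands lie to the right of 0, SMAD regulators gather around the dashed line, and the 10 genes described spread from -4.74 to 1.10.

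E proteins, the partners that ID proteins hold, are all called lower by the authors' deposited table, beside 31.4% of all tested genes. TCF4 went from 124 to 64.0 FPKM (q = 0.000519), TCF12 from 47.2 to 16.0 FPKM (q = 1.32e-07) and TCF3 from 22.9 to 11.5 FPKM (q = 0.00601) there. TCF12 lay below the median gene (adjusted p = 0.00622), and TCF4 and TCF3 missed the threshold (adjusted p = 0.479 and 0.575). The sum of the 3 went from 194 to 91.5 FPKM, so 47.2% was left. The ID sum stood at 0.416 of the E protein sum in undifferentiated cells and at 0.125 in differentiated cells. These are ratios of RNA per length, not of protein.

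Of 7 tested tissue-specific factors that pair with E proteins, the authors' deposited table calls 4 lower and 1 higher. Over all tested genes these shares were 31.4% and 2.2%. Of the 7, 2 lay below the median gene, TWIST1 among them, and NEUROG2 lay above it. TWIST1, a mesenchymal factor, fell from 104 to 37.0 FPKM (q = 3.21e-07), per the authors' deposited table. NEUROG2, a proneural factor, rose from 36.2 to 56.6 FPKM (log2 0.64, q = 0.0284), per the authors' deposited table. HAND1 was also called lower, at 27.0 and 14.9 FPKM (q = 0.0227) in the authors' deposited table, and missed the threshold against the median gene (adjusted p = 0.775). Of 5 tested HES, HEY and BHLHE repressors, the authors' deposited table calls only BHLHE40, which rose from 0.611 to 2.24 FPKM (q = 0.012) and reached a mean of 1 FPKM only through the differentiated group. BHLHE40, HES6 and HEY1 lay above the median gene (adjusted p from 0.00143 to 0.00195).

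Of 4 genes for the stability of ID proteins, the authors' deposited table calls 3 lower, beside 31.4% of all tested genes. USP1, a deubiquitinase that stabilises ID proteins, went from 34.7 to 13.7 FPKM (q = 2.72e-05) there, its partner WDR48 from 24.1 to 14.6 FPKM (q = 0.0219) and the APC/C activator gene CDC20 from 24.0 to 8.49 FPKM (q = 0.000262). The direction of WDR48 turned with FPKM rescaled to an equal sum, at 0.06. None of these 3 passed the threshold against the median gene (adjusted p from 0.0763 to 0.906). The authors' deposited table has MKI67, a marker of dividing cells, falling from 23.6 to 6.97 FPKM (q = 3.02e-10), and its part in these values was not tested.

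Over all 198 listed genes outside the 10, 197 had a row, 103 were tested by the authors and 86 of those averaged 1 FPKM or more. Of these 86, the authors' deposited table calls 32 lower and 6 higher, while 9 lay below the median gene and 9 above it. Over all tested genes these shares were 31.4%, 2.2%, 4.56% and 5.64%. Of the 6 called higher, GDF10, TGFB3, GDF15 and BHLHE40 passed the filter only through the group where they were high. At a mean of at least 5 FPKM, 2 of the 6 calls were left. Among those called lower, BAMBI passed the filter only through the undifferentiated group, where it was high. The median log2 fold change of the 86 was -0.69, beside -0.62 over all tested genes. The 9 below included BAMBI, GATA2, GATA3, TBX2, TBX3, FN1, TCF12 and TWIST1. The 9 above were BMP7, GDF10, TGFB3, GDF15, RGMB, HEY1, HES6, BHLHE40 and NEUROG2. The split between lower and higher therefore rests on the centre from which a change is counted.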

How the data were processed

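Per the submitters' processing notes, the authors used TopHat2 2.0.8 and Cufflinks 2.0.2 with the human genome build hg19. Per the file headers, the deposited table holds an FPKM for either group, their log2 fold, the test statistic, and p-values and q-values. The sources used here do not give the annotation, the scaling or the way in which a group's 2 libraries were joined. The deposited fold differed from the log2 ratio of the FPKM values by at most 1.32e-05 in tested rows with both values above 0. Listed locus starts were raised by 1. Rows with a date for a name (28) were left out.

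The 10 genes and all lists were chosen with earlier results of these data known. The planned limma test on values per library could not be run, since the table holds group values, so the authors' q below 0.05 was used, over genes that averaged 1 FPKM or more. Dividing a gene's log2 fold by its statistic, without signs, gave the implied standard error. The test relative to the median gene took the fold less the median in units of that error, with a normal p (two-sided) and Benjamini-Hochberg adjustment over 11169 genes. This inherits the authors' variance model.

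Named genes were the 10, a fixed set of pathway genes, of each list up to 4 called genes with the widest fold (if none, the 2 most abundant), and the 3 nearest to each of ID1, ID2 and ID3. RGMB, HEY1, HES6, TBX18, ACVRL1, LUM, COL3A1, COL1A1 and the markers listed at 0 were named after their values were seen. Python 3.11.15, numpy 2.4.6, pandas 2.3.3, scipy 1.17.1 and matplotlib 3.10.9 were used. As the table has no counts, it allows neither counting intervals nor floors. Some genes that the naming rule covers are not reported here.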

Additional observations from a re-analysis of the deposited data

How the results depend on the processing

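The number of the 10 genes that were lower was between 8 and 9 under every scaling and pseudocount tried. BMPR2 turned from -0.60 to 0.026 less the median gene and to 0.19 with equal-sum scaling, and stood at -0.02 with quantile normalization; the cause is the shift itself, since those scalings raise log2 folds by 0.62, 0.78 and a median of 0.60. ID4 was higher in all of them. Of 70 alternative fold values of the 10 genes, 38 moved by less than 1 implied standard error, 30 by more, and 2 turned. A pseudocount of 3 FPKM took SMAD6 from -4.74 to -0.84 and TBX20 from -3.79 to -1.11.

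Called genes numbered 3518 lower and 246 higher. With q below 0.01 they numbered 2163 and 147, and with a mean of at least 5 FPKM 111 were higher. Of the pathway genes outside the 10, 32 were lower and 6 higher. With q below 0.01 these were 21 and 2, and with a mean of at least 5 FPKM 2 were higher; fewer genes are tested or pass in these settings. Relative to the median gene 509 lay below and 630 above. Equal-sum scaling gave 313 below, and no centring 3612 below and 251 above.

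No paired analysis was possible because the table holds 1 value per group, and leaving out 1 replicate at a time was not run for the same reason.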
